A study of Mus musculus with 6 samples.

Results

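Shifted-seed isoforms are reads of a known miRNA whose 6mer seed, read positions 2 to 7, is not the seed that most reads of that miRNA carry. They were chosen on measured values. For each mature name with a mean of at least 100 RPM (read counts that the authors normalized to a common library total) over the 6 samples, the seed with the largest summed RPM was taken as the main seed, and every row of that name with another seed was a member. The rule found 9632 of the 109434 rows of the table, in 276 of 793 annotated mature names. Of these members, 7609 were above 0 in at least 1 sample, 1013 were above 0 in all 6, and 4004 had a mean of at least 1 RPM. They came from 274 of the 276 names and formed 2761 isoforms, each a name with a seed. Just inside the limit were miR-299a-5p, with a mean of 101.03 RPM, and miR-540-5p, with 101.17 RPM. Just outside were miR-1843b-5p with 99.3 RPM and miR-1224-5p with 98.7 RPM.

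A miRNA works inside an Argonaute (Ago) protein and finds mRNAs mainly by pairing its seed with them. The 5′ end of the strand sets which bases form the seed, so an isoform whose 5′ end lies a base earlier or later (a 5′ isomiR) has another seed and another set of possible targets. The 5′ end is set by the enzymes Drosha and Dicer, which cut the hairpin precursor, and the seed can also be changed by A-to-I editing, which is read as A-to-G. In the assay behind the viability values, each possible 6mer seed was carried into cells by an siRNA, and a low viability marks a toxic seed.

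RNA bound to Ago proteins was pulled down from mouse brain with a GW182 peptide and sequenced. The labels list 3 WT mice and 3 mice transgenic for a tau fragment (Tau tg). Per the study's methods all were 3-month-old males, and the transgenic mice carried human tau45-230 cDNA under the Thy 1.2 promoter, which is mainly active in neurons, on a C57BL/6J background. The source label names hippocampus, as do the study's results for this mouse model, while the pull-down protocol for mouse brain describes cortex and hippocampus combined. The brain miRNAs miR-124-3p and miR-9-5p ranged from 47769 to 90279 RPM and from 29427 to 48005 RPM, and miR-128-3p from 14221 to 42415 RPM. The muscle markers miR-1a-3p and miR-133a-3p ranged from 11.9 to 126 RPM and from 39.8 to 156 RPM, and miR-206-3p reached 10.8 RPM at most, while the liver marker miR-122-5p reached 28.4 RPM with 0 in 2 samples. The red blood cell markers miR-451a and miR-144-3p ranged from 266 to 814 RPM and from 151 to 518 RPM, and the immune markers miR-142a-3p and miR-223-3p ranged from 141 to 378 RPM and from 16.3 to 47.8 RPM. The table gave back 998248 to 6879551 reads per sample, of which 57271 to 452144 had a shifted seed. The deepest library was Tau tg 1.

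Most shifted reads moved the 5′ end by a single base. Pairs from the 12 most abundant isoforms are shown first to make the move of the 5′ end visible, with the seed in capitals and the most abundant read of each seed given 5′ to 3′ with U for T.
miR-9-3p main: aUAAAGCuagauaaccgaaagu
miR-9-3p shifted: uAAAGCUagauaaccgaaagu
miR-101a-3p main: uACAGUAcugugauaacuga
miR-101a-3p shifted: gUACAGUacugugauaacuga
miR-29a-3p main: uAGCACCaucugaaaucgguu
miR-29a-3p shifted: cUAGCACcaucugaaaucgguu
miR-9-5p main: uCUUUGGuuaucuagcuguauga
miR-9-5p shifted: cUUUGGUuaucuagcuguauga
miR-126a-3p main: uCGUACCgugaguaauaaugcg
miR-126a-3p shifted: cGUACCGugaguaauaaugcg
miR-132-3p main: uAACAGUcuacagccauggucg
miR-132-3p shifted: aACAGUCuacagccauggucg

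The next set is shown because its seeds had the largest falls and the largest rise in viability among isoforms of at least 100 RPM. miR-136-3p had 2 shifted ends, on either side of the main one.
miR-136-3p main: aUCAUCGucucaaaugagucu
miR-136-3p extended: cAUCAUCgucucaaaugagucu
miR-136-3p trimmed: uCAUCGUcucaaaugagucuu
miR-330-3p main: cAAAGCAcagggccugcagaga
miR-330-3p extended: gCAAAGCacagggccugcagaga
miR-24-3p main: uGGCUCAguucagcaggaacagu
miR-24-3p trimmed: gGCUCAGuucagcaggaacagu

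These hairpins lie at the following places in GRCm38.p6 (RefSeq positions, with genes from GENCODE M21). Mir101a is at chr4:101346945-101347027 on the minus strand and overlaps an exon of the lincRNA E130102H24Rik. Mir29a is at chr6:31062660-31062747 on the minus strand, with no other gene annotated there. Mir126a is at chr2:26591357-26591429 on the plus strand, over an annotated exon of Egfl7. Mir136 is at chr12:109595327-109595388 on the plus strand, opposite an exon of the imprinted gene Rtl1. Mir330 is at chr7:19181465-19181562 on the plus strand, over an annotated exon of Eml2. miR-9 is made from 3 hairpins, of which Mir9-1 is at chr3:88215598-88215686 on the plus strand, in an intron of Gm3764. RefSeq held 241 of the 276 names. The main seed was the RefSeq seed for 223 of them and another seed for 18, so that for miR-101b-3p, miR-140-3p, miR-323-3p, miR-330-3p, miR-345-5p and miR-142a-3p the member is the annotated end.

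Shifted reads made up 7.72%, 7.34% and 7.005% of the reads of these miRNAs in the 3 WT mice, against 7.19%, 7.72% and 6.78% in the 3 Tau tg mice. The groups overlapped. The means were 7.35% ± 0.356 in WT against 7.23% ± 0.467 in Tau tg (SD, n = 3), and an exact two-sided permutation test gave p = 0.7. With 3 mice against 3, the smallest p this test can give is 0.1.

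The shifts were short. A 5′ end 1 base upstream of the main one held 40.9% to 45.4% of shifted RPM across the 6 samples, and an end 1 base downstream held 39.4% to 41.8%. Reads 2 bases upstream held 3.65% to 4.24%, and reads 2 bases downstream 3.63% to 4.63%. Reads with the main 5′ end and a changed base in the seed held 2.63% to 3.14%. Reads that could not be placed by these rules held at most 0.157%. Trimmed reads, which lack bases at the 5′ end, were 21.1 nt long on average and extended reads 21.9 nt, against 21.8 nt for main reads. In names with a RefSeq hairpin, the leading 15 nt of the read were found in that hairpin for 76.3% to 83.4% of extended RPM, although only 949 of 3199 extended rows above 0 matched.

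The base at the 5′ end differed between the read classes. Ago proteins are known to favour U, and then A, at this place. Main reads began with U in 73.1% to 76.2% of RPM, and shifted reads in 33.2% to 41.2%. C began 3.71% to 4.20% of main RPM and 24.6% to 29.7% of shifted RPM, and G 1.34% to 1.83% and 15.8% to 19.99%. The ranges of main and shifted reads did not overlap for any of these 3 bases. For A they did not overlap either but lay closer, at 18.6% to 21.1% and 15.7% to 18.3%.

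The arm of the hairpin also differed. In names ending in 3p, 10.7% to 12.4% of RPM had a shifted seed, against 3.59% to 4.31% in names ending in 5p, and the 3p value was higher in each of the 6 mice. Counted by name, the median share was 5.32% over 137 3p names and 3.15% over 135 5p names. Shares over 20% were found in 27 3p names and 14 5p names. Extended reads held 56.3% to 59.4% of the shifted RPM of 3p names and 24.8% to 28.4% in 5p names.

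Single miRNAs differed far more than the samples did. The median shifted share over the 276 names was 4.19%, with quartiles of 2.47% and 11.5%. It was over 10% in 75 names, over 20% in 41 names and under 1% in 11 names. Between pairs of mice, the shares of the 276 names gave Spearman correlations of 0.543 to 0.812 over the 15 pairs, a description across names from libraries of one protocol. The median SD of a name's share over the 6 mice was 1.20 percentage points for the 101 names of at least 1000 RPM and 3.86 for the rest. Since the main seed is by definition the most abundant one, large shares mark miRNAs with no dominant 5′ end.

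Among names of at least 1000 RPM, miR-136-3p had the largest shifted share. It was 62.4%, 58.4% and 53.8% in WT against 53.7%, 54.0% and 53.9% in Tau tg, with a mean of 56.0% ± 3.62 (SD, n = 6). Its shifted reads were 60.1% extended and 39.9% trimmed, so the main seed sat between both. miR-101a-3p, known to target Ezh2 and Cox-2, followed with 47.6% ± 7.07, almost all of it extended. miR-9-3p, the star strand of the neurogenic miR-9, had 47.5% ± 2.33 and was 99.3% trimmed. miR-411-5p, from the imprinted Dlk1-Dio3 cluster on chromosome 12, had 47.4% ± 6.25, all of it extended. The endothelial miR-126a-3p had 43.1% ± 2.94 and was 96.3% trimmed. miR-101b-3p, miR-137-3p and miR-214-3p had 39.4% ± 3.81, 30.2% ± 2.41 and 25.7% ± 2.42. Each of these 8 names thus had its own direction, and the direction was shared by nearly all of its shifted reads except in miR-136-3p. In the names under 1000 RPM the main seed held the smallest share in miR-376a-5p, with 66.3% ± 7.32 shifted, and in miR-485-3p, with 55.6% ± 17.9.

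Few isoforms held most of the shifted reads. The 75 isoforms of at least 100 RPM held 73.7% of shifted RPM, the top 12 held 51.9% and the top 6 held 44.9%. The most abundant was the extended isoform of miR-124-3p, the major neuronal miRNA, with the seed UAAGGC in place of AAGGCA. It had 13699 RPM, 11302 RPM and 9747 RPM in WT against 10013 RPM, 11359 RPM and 7702 RPM in Tau tg. WT 1 was the highest and Tau tg 3 the lowest, and the groups overlapped. As a share of miR-124-3p it was 15.2%, 14.2% and 15.7% in WT against 15.9%, 16.2% and 16.1% in Tau tg, and these values did not overlap. The ratio of all shifted to main reads of miR-124-3p was 0.09 higher in Tau tg on the log2 scale, with a limma adjusted p of 0.995. The trimmed isoform of miR-124-3p, AGGCAC, held 1.25% ± 0.119 (SD, n = 6).

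The isoforms that followed are given as shares of their own miRNA. miR-9-3p AAAGCU held 45.8%, 50.3% and 46.6% in WT against 47.9%, 44.0% and 46.7% in Tau tg. miR-101a-3p UACAGU held 57.5%, 42.8% and 37.9% in WT against 52.9%, 44.8% and 42.1% in Tau tg, with WT 1 highest and WT 3 lowest. The groups overlapped in both. miR-29a-3p UAGCAC held 9.72%, 9.81% and 8.33% in WT against 7.89%, 12.7% and 8.95% in Tau tg. miR-29 represses collagen genes and, in neurons, BH3-only genes. miR-9-5p UUUGGU held 6.22%, 6.64% and 6.34% in WT against 6.09%, 8.10% and 5.97% in Tau tg, so that Tau tg 2 stood highest. miR-126a-3p GUACCG held 39.3%, 41.9% and 44.6% in WT against 39.3%, 40.04% and 39.3% in Tau tg. Of the other top 12, miR-101b-3p UACAGU held 38.9% ± 4.08 and miR-411-5p UAGUAG 46.8% ± 6.62. miR-128-3p ACAGUG, miR-125b-5p CCUGAG and the trimmed miR-132-3p ACAGUC held only 2.10% ± 0.371, 2.85% ± 0.807 and 4.37% ± 0.605, from miRNAs that are abundant in brain.

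Some shifted seeds were the main seed of another miRNA. This was so for 15 of the 75 isoforms of at least 100 RPM. miR-9-3p AAAGCU carried the main seed of miR-320-3p, and both miR-101 isoforms and miR-139-5p UACAGU carried that of miR-582-5p. The trimmed isoforms of let-7a-5p, let-7b-5p, let-7c-5p and let-7d-5p, with the seed AGGUAG, carried the main seed of miR-1839-5p. miR-16-5p GCAGCA carried that of miR-103-3p and miR-107-3p.

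The seeds of the shifted reads had lower viability than the main seeds of the same miRNAs. The deposited viability is a percent of control, averaged over 3 murine cell lines for each 6mer, and ranged from 3.3 to 108.5 over all rows. Weighted by reads, the shift was -7.75, -7.41 and -8.40 points in the 3 WT mice, against -7.37, -6.88 and -6.54 points in the 3 Tau tg mice. All 6 mice were below 0, with a mean of -7.39 points, and an exact two-sided sign-flip test over the 6 mice gave p = 0.03125, the smallest it can give. Viability is a fixed value for each seed, and the same isoforms were abundant in all 6 mice. The test thus cannot show that shifted seeds in general have lower viability. The size of the shift rested largely on miR-124-3p. Its extended isoform went from 57.3% to 31.2% viability and alone contributed -4.62 of the -7.39 points. Without miR-124-3p the shift was -4.08 to -2.46 points, and with each name weighted equally it was -2.60 to -1.49 points. Counted by isoform rather than by read, the 75 isoforms of at least 100 RPM did not lean the same way: 33 had lower viability, 41 higher and 1 the same, and the median shift was 3.6 points.

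The direction of the 5′ shift went with the size of the viability shift. Extended reads were 15.3 to 17.2 points below their main seeds, and trimmed reads 0.519 to 2.85 points above. Without miR-124-3p, extended reads were still 9.52 to 14.0 points below and trimmed reads 1.61 to 3.80 points above, in each of the 6 mice. Counted by isoform, however, the median shift was -0.05 points over 28 extended and 4.3 points over 47 trimmed isoforms of at least 100 RPM. The lower value of extended reads thus came from abundant isoforms. The extended miR-101a-3p UACAGU and miR-29a-3p UAGCAC contributed -1.55 and -1.01 points to the shift of all shifted reads. Their viability fell from 86.2% to 61.1% and from 51.3% to 28.9%. The trimmed miR-126a-3p GUACCG, which rose from 38.4% to 60.9%, contributed 0.904 points. By arm, 3p names had a shift of -11.6 to -9.55 points and 5p names of -0.495 to 0.605 points. The 3p names include miR-124-3p, whose shifted reads had a shift of -24.0 points. They made up 15.6% to 24.1% of all shifted reads, and the 3p shift was not computed without miR-124-3p.

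The largest falls were those of miR-136-3p and miR-330-3p. miR-136-3p had a main seed with 83.4% viability, while its trimmed seed CAUCGU had 30.2% and its extended seed AUCAUC 37.3%. These seeds held 19.0% ± 5.21 and 32.4% ± 6.06 of its reads. miR-330-3p CAAAGC had 18.3% against 70.4% for the main seed, and held 36.1% ± 11.1 of its miRNA (SD, n = 6). miR-382-5p AGUUGU had 31.9% against 71.7%. The largest rise was that of miR-24-3p, from 31.8% to 77.3% in the trimmed isoform GCUCAG, which held 1.79% ± 0.683. miR-127-5p AAGCUC rose from 16.2% to 54.6% and held 38.8% ± 10.7. miR-137-3p UUGCUU and miR-127-3p AUCGGA rose by 35.7 and 34.1 points. Among the 75 isoforms of at least 100 RPM, 13 went from 50% or more to under 50% viability and 9 went the other way.

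Shifted reads with a seed under 50% viability made up 40.9%, 39.1% and 38.4% of shifted reads in WT against 37.0%, 35.8% and 34.3% in Tau tg. Of main reads, 20.9% to 23.9% had such a seed. Without miR-124-3p, 20.9% to 24.2% of shifted reads had such a seed, a range that overlaps that of main reads. The share of main reads was not computed without miR-124-3p. Over all names, the groups did not overlap for the shifted reads. The Tau tg mean of 35.7% ± 1.35 was 3.76 percentage points below the WT mean of 39.5% ± 1.30 (SD, n = 3). An exact two-sided permutation test gave p = 0.1, the smallest possible, and 0.133 after Benjamini-Hochberg adjustment over 4 measures. The groups did not overlap in another pair of measures of the same reads, though only narrowly. The viability shift was -7.85 ± 0.501 points in WT and -6.93 ± 0.417 in Tau tg (exact p = 0.1, adjusted 0.133). The trimmed share of shifted reads was 46.8% ± 0.563 in WT against 49.1% ± 1.49 in Tau tg (exact p = 0.1, adjusted 0.133). The nearest values of the viability shift were -7.41 points in WT 2 and -7.37 points in Tau tg 1. Those of the trimmed share were 47.37% in WT 3 and 47.39% in Tau tg 1.

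The mean amount of miR-124-3p also differed between the groups, and its relation to these measures from mouse to mouse was not tested. miR-124-3p had 77313 RPM ± 14129 in the WT mice and 60257 RPM ± 11426 in the Tau tg mice (SD, n = 3), with overlapping values. In such bulk tissue, fewer cells that make a miRNA and less of it per cell cannot be told apart. Its extended isoform made up 20.7%, 19.998% and 18.6% of all shifted reads in WT against 15.6%, 17.6% and 13.8% in Tau tg, and its own contribution to the share under 50% viability differed by -4.10 percentage points, against -3.76 for all isoforms. Without miR-124-3p, the share of shifted reads under 50% viability was 22.9% ± 0.792 in WT against 22.7% ± 1.69 in Tau tg (exact p = 1). The difference of the viability shift was then -0.12 points (exact p = 0.9) and that of the trimmed share -0.04 percentage points (exact p = 0.9), both with the opposite sign.

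For each miRNA, the ratio of shifted to main reads was compared between the groups with limma on log2((shifted RPM + 1)/(main RPM + 1)). No name of the 276 passed an adjusted p of 0.05, a share of 0%. At an unadjusted p under 0.05 there were 14 names, 5.07% of those tested, 9 higher and 5 lower in Tau tg. The groups did not overlap in 32 names, or 11.6%. The 14, the 9 higher and the 32 each include miR-540-5p, which is treated apart below.

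miR-540-5p reached the limit of 100 RPM only through the Tau tg mice, with a mean total of 88.1 RPM in WT against 114 RPM in Tau tg, so its values are a description and no test of it is given. Its shifted reads had 0.468 RPM, 0.678 RPM and 0 RPM in WT against 32.6 RPM, 25.1 RPM and 34.4 RPM in Tau tg, while its main reads had 39.8 RPM to 180 RPM and 56.9 RPM to 105 RPM. All Tau tg mice lay above all WT mice. The WT values stand for 1, 1 and 0 reads, so the size of the difference depends on the pseudocount. The log2 ratio was 4.29 higher in Tau tg, and nearly all of these reads carried the substitution A3G, counted from the 5′ end of the most abundant main read. The difference was 6.17 with a pseudocount of 0.1 and 2.50 with a pseudocount of 5. With 5′ offset reads only, the difference of the log2 ratio was 0.61. Of the 276 names, 16 averaged under 100 RPM in 1 group, and of the 14 names above miR-540-5p was the 1 such name. miR-34b-3p had a shifted share of 10.7%, 22.5% and 8.73% in WT against 28.9%, 63.3% and 34.1% in Tau tg, with no overlap and a log2 ratio 2.18 ± 0.685 higher (limma adjusted p = 0.807). The call at an unadjusted p under 0.05 was lost without WT 1 or without WT 3. miR-106b-5p, of the miR-17 family, had 0.414% ± 0.0959 in WT against 2.01% ± 0.306 in Tau tg, and miR-3068-5p had 1.83% ± 1.21 and 12.5% ± 6.09 (limma adjusted p = 0.464 and 0.605). These shares rest on few reads. In WT the shifted reads of miR-106b-5p had 3.28 RPM to 14.7 RPM and those of miR-3068-5p 1.36 RPM to 8.43 RPM. The most abundant shifted isoform of miR-106b-5p, AAGUGC, overlapped between the groups.

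The other direction was seen in miR-409-3p, whose shifted share was 44.1%, 56.7% and 67.3% in WT against 34.7%, 17.8% and 28.7% in Tau tg. The groups did not overlap, and the log2 ratio was lower by -1.81 ± 0.487 (limma adjusted p = 0.657). Its shifted reads were mostly trimmed, with the seed AUGUUG at 79.8% viability against 51% for the main seed. miR-153-5p had 23.6% ± 9.03 in WT against 7.04% ± 6.21 in Tau tg, miR-92b-3p 6.75% ± 2.13 and 3.35% ± 0.621, and miR-541-5p 7.42% ± 2.04 and 2.39% ± 1.86 (SD, n = 3; limma adjusted p = 0.807 for each). At an unadjusted p under 0.05, miR-92b-3p was called only without WT 2 among the 6 fits that left out a mouse, and miR-541-5p only without Tau tg 1. Without Tau tg 2 the log2 ratio of miR-541-5p was lower by -1.10 in place of -1.99. miR-153-5p lost its call without WT 3 and without Tau tg 2. miR-409-3p and miR-541-5p, like miR-136-3p and miR-411-5p, come from the Dlk1-Dio3 cluster. Each of these calls was made at the unadjusted level, on libraries that differed in depth, and the part of depth in them was not tested.

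Single member sequences were tested with limma on log2(RPM + 1) in the fit of all 36070 sequences that averaged 1 RPM or more. None of the 4004 members passed an adjusted p of 0.05, against 0.0277% of all sequences. At an unadjusted p under 0.05 there were 138 members, or 3.45%, against 2.23% of all sequences. Of these, 103 were higher and 35 lower in Tau tg, against 519 higher of 803 for all sequences. After median-of-ratios scaling 82 of 123 members were higher. The split turned with the count tools on the recovered reads, where 30 of 89 members were higher with edgeR and 40 of 154 with DESeq2, against 357 of 2564 and 260 of 3344 for all sequences. With these tools the members called at the unadjusted level, 2.22% and 3.85%, lay below the share of all sequences, 7.11% and 9.27%. After adjustment edgeR called no member, against 0.136% of all sequences. DESeq2 called 7 of the 984 members that were given an adjusted p, or 0.711%, against 7.24% of all such sequences. The median log2 change was 0.16 over the members and -0.16 over all sequences. Of 1002 members detected in every sample, WT and Tau tg values lay apart in 106 (10.6%), compared with 9.22% of all such sequences.

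Among these, the sequences with the largest difference in RPM are given with their reads, to show their 5′ ends. The seed is in capitals.
miR-330-3p extended: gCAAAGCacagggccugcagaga
miR-345-5p trimmed: gCUGACCccuaguccagugc
miR-127-3p extended: cAUCGGAuccgucugagcuugg
miR-708-3p trimmed: aACUAGAcugugagcuucuaga

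The miR-330-3p read had 50.1 RPM, 33.9 RPM and 70.6 RPM in WT against 154 RPM, 191 RPM and 114 RPM in Tau tg, so that all Tau tg mice lay above WT (log2 change 1.58 ± 0.67 SE, limma adjusted p = 0.584). Its seed had 18.3% viability. The isoform CAAAGC as a whole, with all its 3′ ends, overlapped between the groups, at 183 RPM ± 126 and 295 RPM ± 47.6 (SD, n = 3). The miR-345-5p read had 1.87 RPM, 4.74 RPM and 9.17 RPM in WT against 44.1 RPM, 105 RPM and 76.5 RPM in Tau tg (log2 change 3.70 ± 0.869 SE, limma adjusted p = 0.0613). The share of its seed CUGACC within miR-345-5p was 40.2%, 46.0% and 51.5% in WT against 46.8%, 28.9% and 38.3% in Tau tg, and the groups overlapped for the seed as a whole. A trimmed read of miR-23b-3p with the seed CACAUU had 34.9 RPM ± 16.2 in the WT mice and 102.3 RPM ± 39.99 in the Tau tg mice. In the other direction, the miR-127-3p read had 37.5 RPM, 85.4 RPM and 56.0 RPM in WT against 34.0 RPM, 4.18 RPM and 14.7 RPM in Tau tg (log2 change -2.02 ± 0.813 SE, limma adjusted p = 0.584). The miR-708-3p read had 39.7 RPM ± 18.6 in WT against 9.94 RPM ± 6.66 in Tau tg, and a trimmed read of miR-30d-5p with the seed UAAACA had 32.9 RPM ± 26.2 and 3.78 RPM ± 5.48. With DESeq2 the miR-330-3p read lost its call at an unadjusted p under 0.05, and the miR-23b-3p, miR-127-3p, miR-708-3p and miR-30d-5p reads lost it with both edgeR and DESeq2. All of these but the miR-30d-5p read also lost it in limma without the mean-variance trend. Without Tau tg 2 the log2 change of the miR-127-3p read was -1.29, and its call was lost. The miR-23b-3p read lost its call without WT 3, Tau tg 1 or Tau tg 2, and the miR-708-3p read without WT 2 or Tau tg 3.

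Of 7 miRNAs listed for alternative 5′ ends described in other work, 6 were measured, with a median shifted share of 45.9%. Besides the miR-124-3p, miR-101a-3p and miR-411-5p given above, they were the immune miR-142a-3p with 53.5% ± 7.30, miR-140-3p with 44.3% ± 8.56 and miR-9-5p with 8.86% ± 1.25 (SD, n = 6). None of the 6 passed an unadjusted p under 0.05 for the ratio. The let-7 family, which shares the seed GAGGUA and restrains growth, had little variation of this kind. Its 9 measured members had shares of 0.987% to 3.20%, with a median of 2.30%. The 4 measured members of the miR-181 family had 1.20% to 3.02%, and the 5 of the miR-30 family 3.23% to 3.91%. The miR-29 family differed within itself, with 11.7% in miR-29a-3p, 5.09% in miR-29b-3p and 3.43% in miR-29c-3p, although all have the same main seed AGCACC. The 6 of the miR-15/16 family had 1.90% to 8.55%, the 3 of the miR-34 family 0.568% to 15.3%, and the 4 of the miR-17 family 1.21% to 6.47%. In all these families, 1 name, miR-106b-5p, passed an unadjusted p under 0.05 for the ratio, and none passed after adjustment.

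Base changes inside the seed were a minor class, and A-to-G was the most frequent of them. It made up 35.0% to 44.3% of the RPM with a single substitution, against 14.3% to 21.2% for C-to-U and 11.7% to 18.004% for U-to-C. Of 88 pairs of a miRNA and a substitution with a mean of at least 5 RPM, 9 exceeded 1% of their miRNA, and 8 of these were A-to-G. The 1% applies to the mean share, and some of these pairs rested on a single mouse. miR-324-5p G2C was found in Tau tg 2 only, and miR-770-5p A4G was 7.65% there and at most 0.915% elsewhere. miR-337-3p A3G was 8.55% in WT 1 and 0% in WT 3 and Tau tg 2. miR-384-5p A4G exceeded 1% in every mouse but WT 1. The median share of the 88 was 0.0791%. Of the listed miRNAs whose seeds are known to be edited, miR-497a-5p carried A2G in 2.41%, 2.62% and 2.14% of reads in WT against 0.801%, 2.50% and 0.229% in Tau tg. This change takes the seed from 37.8% to 9.7% viability. miR-151-3p carried A3G in 0.917%, 0.637% and 0.855% in WT against 3.06%, 9.54% and 3.46% in Tau tg, all above WT, at 9.76 RPM on average and with a seed of 24% viability against 93.9%. These reads had only 3.75 RPM, 0.678 RPM and 1.835 RPM in WT, and 9.39 RPM, 36.8 RPM and 6.14 RPM in Tau tg. Every WT value was under 5 RPM, so this pair reached that limit only through the Tau tg mice. Its values are a description and no test of the difference. In how many of the 88 pairs the groups lay apart was not counted. The 8 measured names of that list had a median shifted share of 4.17%, and none passed an unadjusted p under 0.05 for the ratio. That share counts every shifted seed and is no measure of editing. Substitutions of any base made up 57.8% of the shifted RPM of miR-151-3p and 38.0% in miR-497a-5p. In the other measured names of the list they made up 0% (miR-411-5p) to 17.5% (miR-379-5p). In the let-7 family, A3G was present at 0.134% to 0.177% in let-7a-5p to let-7i-5p, and would take the seed from 50.3% to 29.4% viability.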

How the data were processed

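Ago-bound RNA of 3 WT and 3 Tau tg mice was analysed, with groups and replicate numbers from the sample titles. The table was made by the authors with their SPOROS pipeline, in which reads were trimmed (Trim Galore, per the submitters' processing notes), compiled into unique sequences, cleared of rare reads and artificial sequences, annotated by BLAST and scaled to library size, so the deposited values are RPM. The viability column is a score deposited by the authors, looked up by seed, and was used as given. 1 further numeric column, a row total, was not used.

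Values were whole multiples of what 1 read is worth in 100% of cases (within 0.1 reads), giving 998248 to 6879551 reads per sample. Removal of rare reads leaves low values incomplete, and the depth differs between libraries. PCR reads carry no molecular identifiers. Whether the mice were littermates is not stated, and p-values measure the spread between these samples.

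Members were compared with the most abundant main read over up to 18 nt, at offsets of up to 6 nt, with at least 12 nt of overlap and at most 1 mismatch (offset reads) or 2 (substitutions). Per-sample measures were tested with exact permutation tests in Python 3.11.15. Ratios of 276 names, and sequences that averaged 1 RPM or more, were fitted with limma 3.58.1 (R 4.3.3) with a mean-variance trend, a pseudocount of 1 RPM and Benjamini-Hochberg adjustment over all rows fitted. The edgeR 4.0.16 and DESeq2 1.42.0 tests on recovered reads were alternatives, calling 0 and 7 members after adjustment. The limma script was tested on simulated data. Named items were the 12 most abundant isoforms, the 8 names of at least 1000 RPM with the largest shares, the 4 largest falls and rises in viability, up to 4 names and 3 sequences per direction with an unadjusted p under 0.05 and no overlap, names at the limits, and members of set lists. Members and lists were chosen with earlier results of these data known. Same-numbered samples did not deviate together, so the numbers were not taken to pair the mice.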

Additional observations from a re-analysis of the deposited data

How the results depend on the processing

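With each name weighted equally, the Tau tg minus WT difference changed sign in all 4 per-sample measures: 0.31 percentage points for the shifted-seed share, -0.61 points for the viability shift, 1.28 for the share under 50% viability and -0.85 for the trimmed share. Without miR-124-3p it changed sign in 3, to 0.11, -0.12 and -0.037 for the share, viability shift and trimmed share, and was -0.20 for the share under 50%. Leaving out 1 mouse, the differences ranged from -0.37 to 0.10 (share; positive without WT 1, at 0.06, or Tau tg 3), 0.65 to 1.14 (viability shift), -4.42 to -3.03 (under 50%) and 1.83 to 3.14 (trimmed). No setting could give an exact p under 0.1 for these. The 14 names at an unadjusted p under 0.05 became 9 with a trend on the level of shifted reads, a setting chosen after seeing the data, and 7 with names of at least 1000 RPM. Leaving out 1 mouse gave 8 to 30 names: leaving out WT 1 gave 30, Tau tg 2 gave 9 and Tau tg 3 gave 8. After adjustment no name passed in any of these settings, leaving aside miR-540-5p. That name reached the RPM limit only through the Tau tg mice, so no test of it is given. The 138 sequences became 66 with a pseudocount of 5, 89 without the trend, 25 at a mean of at least 10 RPM (fewer sequences tested) and 89 with edgeR. Leaving out 1 mouse gave 91 to 190, the lowest without Tau tg 2. After adjustment, 3 passed with a pseudocount of 0.1 (16 of all 36070 sequences), 7 with DESeq2 (459 of all) and 0 to 2 with a mouse left out (0 to 11 of all). With the replicate number as a block, 10 names and 136 sequences passed at the unadjusted level and 3 sequences after adjustment (22 of all), against 0. The correlations of same-numbered samples were 0.0257, 0.00713 and 0.00684, so no pairing was assumed. Of 196 settings of the 14 named ratios and sequences, 46 lost the unadjusted call and none reversed a direction. These items were chosen for groups that do not overlap, so leaving out a mouse could not reverse one. The absence of reversals is thus no support for them. Settings of miR-540-5p are among the 196. Low values rest on few reads, and rare reads had been removed before deposit.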
